A study of Mus musculus with 2 samples.

Results

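Blood endothelial cells line the vessels that carry blood into a tumour. In 1 section of EKP and 1 section of RKP subcutaneous mouse tumour they were picked by a rule on counts: 40 or more gene counts, 2 or more different genes detected among Pecam1, Kdr, Tie1, Vwf, Plvap and Clec14a, no count of the lymphatic genes Prox1 or Mmrn1, and at most 1 count of the epithelial gene Epcam. The rule found 18753 cells in EKP and 15737 in RKP, 34490 of the 516855 segmented cells in both files. They are called the members below, and all remaining cells with 40 or more gene counts are the other cells. The rule reads the same counts that are described, so the levels of its 9 genes, and every comparison of members with other cells, describe the cells so chosen and test nothing.

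Blood endothelium is held together by junction proteins such as Pecam1, senses growth signals through receptor kinases such as Kdr and Tie1, stores von Willebrand factor for clotting, and in fenestrated or growing vessels carries Plvap on its diaphragms. Arterial cells use Notch and Sox17, capillary cells take up lipids through Gpihbp1 and Cd36, and sprouting cells make Angpt2. Outside the endothelium lie pericytes and smooth muscle cells, the mural cells, whose thin processes share a basement membrane with it, so that transcripts of both can fall within the same segmented outline.

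Cells of the cultured lines EKP and RKP, mixed with Matrigel, a basement membrane gel, had been injected beneath the skin of each flank of C57BL/6 mice aged 5 weeks, and the tumours were collected once they had reached like volumes. Neither name is spelled out in the labels, nor is it said there how many mice were used or whether EKP or RKP bears the RHOA mutation of the series title. Xenium In Situ, which decodes RNA molecules in place and assigns them to segmented cells, was run on paraffin sections with a panel of 479 genes. With 1 section of each tumour there is no spread between samples: no p-value is given, intervals are 95% and cover counting error only, and differences between the sections are differences between 2 pieces of tissue.

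The sections differed in depth. The EKP file held 261111 barcodes, of which 99115 had under 40 gene counts, and the RKP file 255744, of which 20629 did. Among cells with 40 or more counts, the median was 160 counts in members and 165 in other cells of EKP, and 150 and 167 in RKP. The files share 19 barcode names, 1 of them a member in RKP and none in EKP. Levels are counts summed over a set of cells and scaled to 1000000 gene counts (CPM); each gene is compared with itself only, since probes differ between genes.

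The 6 rule genes stood far above the other cells in both sections, as the rule makes them. Pecam1, the junction protein CD31, was present in 78.4% of members in EKP and 76.3% in RKP, and Plvap in 82.9% and 82.6%. Tie1 was found in 76.1% and 72.0%, Kdr, the main receptor of vascular endothelial growth factor, in 68.5% and 68.1%, and Vwf in 58.0% and 63.6%. Clec14a, an endothelial lectin-like receptor, was the least often seen, in 25.8% and 20.5%. Their levels in members and other cells were 13774 and 731 CPM for Pecam1 in EKP and 13591 and 496 in RKP. For Vwf they were 10482 and 474 in EKP and 12481 and 332 in RKP, and for Clec14a 2442 and 71.4 against 1787 and 40.4.

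Leaving each gene out of the rule in turn gave a reading of that gene that its own counts did not choose. A cell was gated when its full counts held 2 or more of the other 5 genes under the same limits. The gene left out was then read with every cell thinned at random to 40 counts, so depth could still affect which cells were gated. Cells gated on the other 5 genes held Pecam1 in 42.2% of EKP cells (Clopper-Pearson interval 41.5 to 43.0), against 3.01% of cells that were not gated and 1.41% of cells rich in Epcam and Krt8 (5 or more counts of each), which should lack it. In RKP these shares were 41.7%, 2.19% and 0.681%. Plvap was present in 49.7% and 48.3% of cells gated without it, Tie1 in 42.2% and 40.2%, and Clec14a in 9.15% and 6.94%. The corresponding shares in the Epcam- and Krt8-rich cells were at most 1.83%, for Plvap in EKP. Each of the 6 genes was thus more frequent in cells with 2 or more of the other 5 than in cells that were not gated. All 6 belong to the rule, so these shares describe how its genes go together and do not test the label.

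The start regions of some of these genes are printed to show what kind of sequence the panel's endothelial genes carry, taken from RefSeq on GRCm38.p6. Of the 6 rule genes and the 20 leading genes outside the rule described below, 13 have a promoter in that table. The 250 bases before the start are given for Tie1 (chr4:118489850-118490099, minus strand), Kdr (chr5:75978456-75978705, minus strand) and Eng (chr2:32646345-32646594, plus strand), genes that were high together, and for Cd36 (chr5:17835897-17836146, minus strand), which separated members from each other. Capitals mark GGAAG or its complement CTTCC, the core recognised by the ETS family of transcription factors, which is known to drive many endothelial genes.
Tie1: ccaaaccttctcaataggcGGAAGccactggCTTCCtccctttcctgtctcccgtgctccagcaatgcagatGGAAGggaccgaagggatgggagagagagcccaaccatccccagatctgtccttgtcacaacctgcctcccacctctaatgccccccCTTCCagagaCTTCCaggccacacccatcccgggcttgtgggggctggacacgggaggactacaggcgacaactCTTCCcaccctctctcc
Kdr: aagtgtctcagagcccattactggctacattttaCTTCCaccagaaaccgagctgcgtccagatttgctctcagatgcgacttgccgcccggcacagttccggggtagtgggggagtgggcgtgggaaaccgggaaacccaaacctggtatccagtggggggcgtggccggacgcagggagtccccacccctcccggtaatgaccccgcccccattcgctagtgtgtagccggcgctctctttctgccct
Eng: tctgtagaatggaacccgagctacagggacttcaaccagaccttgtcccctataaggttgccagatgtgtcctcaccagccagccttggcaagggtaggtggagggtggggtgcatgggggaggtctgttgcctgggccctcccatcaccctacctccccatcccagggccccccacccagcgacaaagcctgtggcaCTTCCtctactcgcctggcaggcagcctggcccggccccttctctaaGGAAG
Cd36: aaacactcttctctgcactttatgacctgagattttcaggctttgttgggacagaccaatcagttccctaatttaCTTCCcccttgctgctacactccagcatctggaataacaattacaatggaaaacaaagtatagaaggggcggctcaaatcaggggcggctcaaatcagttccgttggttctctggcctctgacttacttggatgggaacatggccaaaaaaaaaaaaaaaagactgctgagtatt
Tie1 held 6 matches on both strands together, Eng 2, and Kdr and Cd36 1 each. The letters GGAAG occurred in 11 of the 13 genes and in 64.1% of all 32851 listed promoters over the same 250 bases. The longer GGAAGT, which contains GGAAG, occurred in 4 of 13 against 19.7%, and the full CCGGAAGT in 0 of 13 against 2.88%. A match is a run of letters and not a shown binding site.

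Members were spread over the number of rule genes detected. In EKP 4378, 3142, 3811, 4893 and 2529 members held 2, 3, 4, 5 and 6 of them, and in RKP 4041, 2613, 2949, 4231 and 1903. Just inside the count limit lay 363 EKP and 344 RKP members with 40 to 49 counts, and just outside it 261 and 210 cells with 30 to 39 counts that met the gene conditions. Exactly 1 rule gene was detected in 22211 and 29006 cells with 40 or more counts. The Epcam limit kept out 5172 and 5040 cells that met every other condition, 2108 and 2427 of them with 2 or 3 counts, while 16.9% of EKP and 26.5% of RKP members held 1 count of Epcam. The limit on Prox1 and Mmrn1 kept out 362 cells in EKP and 2005 in RKP, which is 1.93 and 12.7 per 100 members.

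Outside the rule, 37 of 431 genes measured in both sections (8.58%) were at least 2-fold higher in members than in other cells of both. In EKP alone the count was 45 of 466 (9.66%) and in RKP 55 of 434 (12.7%), and 112 (24%) and 103 (23.7%) were at least 2-fold lower, 65 of the 431 (15.1%) in both. A gene was measured where its sum passed that of the highest negative control probe, and the 2-fold mark is a rule of size. The 6 highest smaller-of-both ratios belonged to Gpihbp1, Sox17, Tcf15, Calcrl, Eng and Angpt2. Gpihbp1, which holds lipoprotein lipase on the capillary wall, stood at 12439.9 CPM in the members and 614 in the other cells of EKP, and at 13236 and 406 in RKP, or 20.3-fold (19.9 to 20.6) and 32.6-fold (32.0 to 33.2), with exact conditional binomial intervals. Sox17, a transcription factor of arterial endothelium, stood at 2529 CPM in the members and 139 in the other cells of EKP, and at 2118 and 54.6 in RKP, ratios of 18.2-fold (17.5 to 18.9) and 38.8-fold (36.9 to 40.8). Gpihbp1 was present in 62.4% of members in EKP and 58.8% in RKP and Sox17 in 27.4% and 23.3%, so neither marked every member.

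Receptors and their ligands followed. Eng, the endoglin co-receptor for TGF-beta family ligands, stood at 21888 CPM in the members and 1695 in the other cells of EKP, and at 20698 and 1645 in RKP, 12.9-fold and 12.6-fold. Calcrl, the receptor subunit that binds adrenomedullin, stood at 7149 CPM in the members and 567 in the other cells of EKP, and at 7224 and 516 in RKP, 12.6-fold and 14.0-fold. Angpt2, the angiopoietin that loosens vessels through the Tie receptors, stood at 5265 CPM in the members and 356 in the other cells of EKP, and at 3954 and 358 in RKP, 14.8-fold and 11-fold. The first pair differed little between the sections, while Angpt2 was the higher in EKP members.

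Among channels, transporters and enzymes, Aqp1, a water channel, was 9.28-fold (9.14 to 9.41) and 19.0-fold (18.7 to 19.3) higher in members of EKP and RKP. Mgll, which cleaves monoacylglycerol, was 4.89-fold and 5.23-fold higher, and Prss23, a secreted serine protease, 5.13-fold and 5.47-fold. Ctla2a, a cathepsin inhibitor, stood at 24109 CPM in members of EKP and 17496 of RKP, 6.18-fold and 6.82-fold above other cells. Rbp7, a retinol-binding protein, was 7.42-fold and 12.7-fold higher at levels of 136 and 91.7 CPM. Of transcription factors, Tcf15 was 13.5-fold higher in EKP and at least 20.8-fold higher in RKP, where the other cells were at the control probe level. Hey1, a Notch target, was 12.2-fold and 4.64-fold higher, and Id1, a BMP target, 5.70-fold and 4.53-fold. Hey1 in other cells was 236 CPM in EKP and 688 in RKP, so that its smaller ratio in RKP went with a higher level outside the members.

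Some leading genes are better known elsewhere. Chga, the granule protein chromogranin A of endocrine cells, stood at 507 CPM in members and 71.1 in other cells of EKP and at 154 and 27.5 in RKP. Nts, the precursor of neurotensin, stood at 451 and 59.1 in EKP and 749.6 and 90.7 in RKP. AU021092 was 12.5-fold and 6.42-fold higher, Gm13889 9.09-fold and 8.76-fold, and the G protein subunit Gng11 5.25-fold and 6.73-fold. The remaining leading genes, Rgs5 and Higd1b, are pericyte genes and are taken up with the mural list. Chga was found in 2.03% of EKP and 0.655% of RKP members at 40 counts per cell, against 0.201% and 0.0771% of the Epcam- and Krt8-rich cells.

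**Figure D1:**
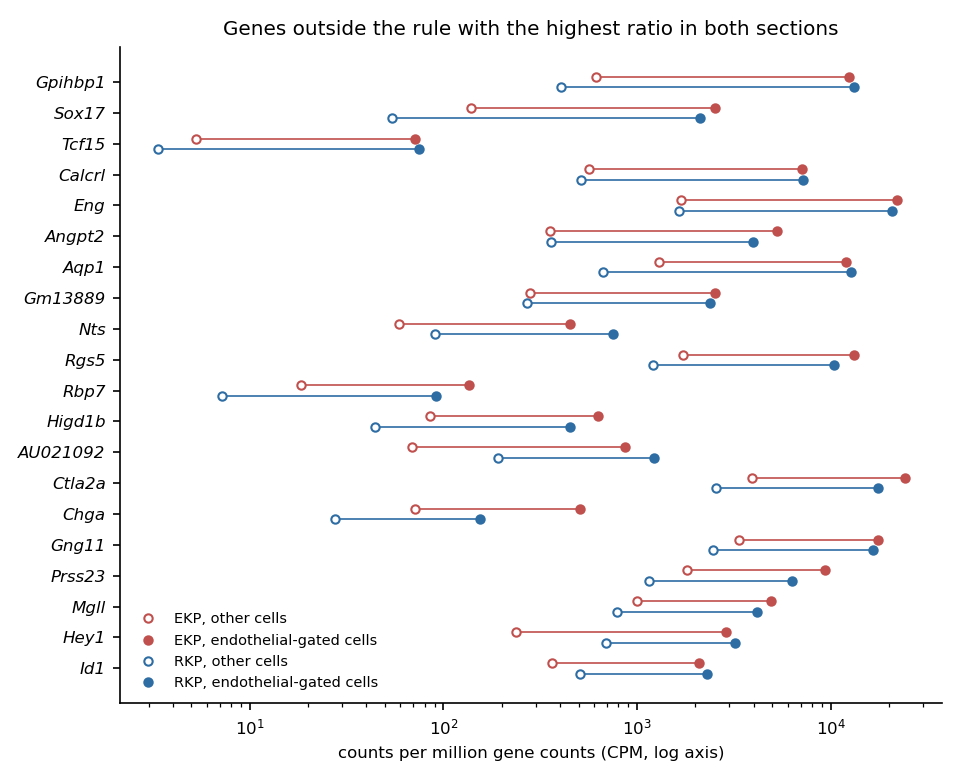
Levels in CPM, on a log axis, of the 20 genes outside the rule with the highest smaller-of-both ratio; filled points are members, open points other cells, red EKP and blue RKP. In every row the filled points lie to the right, for Gpihbp1 at 12439.9 and 13236 CPM.

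Of the lists of vessel genes, 3 of 4 measured endothelial genes were 2-fold higher in members of each section, Eng, Calcrl and Podxl, with a list median of 2.72 on the log2 scale in EKP and 2.76 in RKP, beside -0.44 and -0.05 over all genes outside the rule. Podxl, an anti-adhesive sialomucin, was 3.46-fold and 3.64-fold higher. The exception, Ly6c1, stood at 3392 CPM in members and 4089 in other cells of EKP and at 3016 and 2645 in RKP. Of 4 arterial genes, 3 passed 2-fold in EKP and 4 in RKP: beside Sox17 and Hey1, Hey2 was 3.59-fold and 7.45-fold higher, and Fbln5, of elastic fibres, 1.82-fold and 2.33-fold.

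Of 7 capillary genes, 4 passed in EKP and 5 in RKP, beside 9.66% and 12.7% of all measured genes. Cd36, which takes up fatty acids, was 2.61-fold and 3.51-fold higher, and the glycerol channel Aqp7 4.65-fold and 3.24-fold, beside Gpihbp1 and Aqp1. Tmem100 was 1.5-fold and 2.38-fold higher, so that it passed in RKP only, while Prx was at 1.21 and 0.800 and Timp4 at 0.92 and 1.53 times other cells. The other cells include those the Epcam limit keeps out. EKP cells with 0 rule genes under the same limits held Cd36, Tmem100 and Timp4 at 2479, 662 and 38.7 CPM. EKP members held them at 3248, 677 and 26.5. Gpihbp1, Aqp1, Aqp7 and Prx stood at 189, 671, 27.2 and 190 CPM in those cells, against 12439.9, 11994, 95.5 and 417 in EKP members. The caveola genes Cav1 and Cavin2 were 2.92-fold and 3.31-fold higher in EKP and 1.63-fold and 1.40-fold in RKP, under 2-fold there. In the other cells Cav1 measured 5066 CPM in EKP and 7007 in RKP. Of the sprouting genes, Pdgfb, which draws pericytes to the vessel, was 2.48-fold and 1.75-fold higher beside Angpt2. In the BMP list, Bmp2 was 2.31-fold and 1.63-fold and the inhibitor Smad6 1.81-fold and 1.08-fold higher, beside Id1. No gene of the venous or adhesion lists was on the panel, so venous endothelium had no marker here.

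None of 5 proliferation genes passed 2-fold in either section, a count too small to set apart from the 9.66% and 12.7% of all measured genes that did. Mki67 was 1.31 times and Top2a 1.27 times the other cells in EKP, and 0.940 and 0.854 times in RKP. Cenpf, Ube2c and Stmn1 lay between 1.01 and 1.26 times in EKP and between 0.756 and 0.785 times in RKP. The hypoxia list held Vegfa, the ligand of Kdr, at 2797 CPM in members against 13638 in other cells of EKP and at 2419 against 10718 in RKP. The ligand was thus 4.88-fold and 4.43-fold lower in members, of which 68.5% and 68.1% held a count of Kdr. The other cells include those the Epcam limit keeps out. Epcam- and Krt8-rich cells held Vegfa at 22579 CPM in EKP and 16819 in RKP. Cells kept out only by Epcam held it at 10003 and 8315 CPM, and EKP cells with 0 rule genes under the same limits at 6327. Hif1a and Ndrg1 lay between 0.817 and 1.28 times the other cells.

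Markers of other cell types were present in the members. All 4 measured epithelial genes outside the rule were at least 2-fold lower in members of both sections, where 15.1% of all measured genes were. Krt8 was lower by 4.22-fold and 4.09-fold, Krt19 by 6.25-fold and 8.07-fold, Cdh1 by 11.2-fold and 7.66-fold and Cldn4 by 19.3-fold and 17.3-fold. The other cells include those the Epcam limit keeps out, so the rule itself enters these ratios. EKP cells with 0 rule genes under the same limits held Krt8, Krt19, Cdh1 and Cldn4 at 10264, 7353, 1601 and 888 CPM. EKP members held them at 6626, 3792, 956 and 609. Of the 5 fibroblast, 6 macrophage, 3 neutrophil and 4 T cell genes none was 2-fold apart from the other cells in either section. Of all measured genes, 9.66% in EKP and 12.7% in RKP were 2-fold higher, and 24% and 23.7% 2-fold lower. Each measured gene of these lists was lower in EKP members than in EKP cells with 0 rule genes under the same limits. Col1a1, Cd68, Csf3r and Cd3e stood at 65445, 6427, 4063 and 408 CPM there, against 48027, 2953, 1413 and 199 in EKP members. Col1a1 stood at 48027 CPM in members and 43997 in other cells of EKP and at 42202 and 28194 in RKP, and Cd68 at 2953 and 3861 and at 3760.3 and 4481. Members with 2 or more genes of the fibroblast list made up 51.9% in EKP and 46.7% in RKP, of the macrophage list 36.5% and 51.0%, of the epithelial list 32.0% and 33.6%, and of the mural list 84.2% and 78.6%. None of the measured lymphatic, platelet or mast cell genes was 2-fold higher in members of either section, and of the muscle list the 1 measured gene, Pvalb, was 2.31-fold higher in RKP members and 1.96-fold lower in EKP members than in other cells. Transcripts of neighbouring cells can be assigned to a cell by segmentation, and their part in these levels was not tested; positions of cells were not used here.

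Of 8 mural genes, 5 were at least 2-fold higher in members of both sections, where 8.58% of all measured genes were. Rgs5, a pericyte regulator of G protein signals, stood at 13195 CPM in members and 1728 in other cells of EKP, and at 10447 and 1213 in RKP. Higd1b, Des, Mylk and Myh11 were 7.33-, 4.32-, 4.32- and 2.70-fold higher in EKP and 10.3-, 3.58-, 3.32- and 2.80-fold in RKP. Acta2, Tagln and Cnn1, contractile genes that myofibroblasts share, lay between 0.820 and 1.34 times the other cells. Cells gated on 2 or more counts of Higd1b with fewer than 2 rule genes, 192 in EKP and 182 in RKP, held Rgs5 at 40226 and 39012 CPM and Gm13889 at 8579.9 and 12609, above the members' 2532 and 2374. Gm13889, a leading gene of the members, was therefore higher still in the pericyte-gated cells, as was Hey2 at 1499 and 1600.2 CPM against 255 and 262. Gpihbp1 there was 1175 and 1824, far under the members.

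Without members that carried 2 or more genes of an epithelial, fibroblast, mural, macrophage, neutrophil or T cell list, 757 cells remained in EKP and 750 in RKP. In them Rgs5 stood at log2 ratios of 0.27 and 0.33 over other cells, and Higd1b at -0.56 and -0.15, below the other cells. That limit removes mural transcripts by its own construction. Sox17, over the same and the other settings of the gate and scaling that were tried, kept a log2 ratio of 3.74 or more in EKP and 4.58 or more in RKP.

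Members with more of the rule genes held more of several endothelial genes the rule did not use and less of several genes of other cell types. Not every vessel gene rose. With 5 or 6 rule genes, Tmem100 stood at 0.567 times its level with 2 in EKP and 0.852 times in RKP. Timp4 stood at 0.382 and 1.36 times, and Hey2 at 1.05 and 1.73 times. In EKP, Eng stood at 5344, 10539.8, 21267, 32167 and 40356 CPM in members with 2, 3, 4, 5 and 6 rule genes, and in RKP at 5592, 11042, 20757, 31323 and 37959.5. Sox17 was 12.8-fold (11.3 to 14.6) higher with 5 or 6 genes than with 2 in EKP and 16.0-fold (13.7 to 18.8) in RKP. Gpihbp1 was 7.60-fold and 8.24-fold higher, Calcrl 7.55-fold and 7.38-fold, and Aqp1 7.05-fold and 7.85-fold. Gpihbp1 and Angpt2 were lower with 6 genes than with 5: 18496 against 21077 CPM for Gpihbp1 and 7457 against 8695 for Angpt2 in EKP, and 20648 against 23080.5 and 5115 against 6466 in RKP.

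In the other direction, Cd68 was 2.87-fold and 2.65-fold lower with 5 or 6 genes, Lum, a fibroblast proteoglycan, 2.76-fold and 1.75-fold, Krt8 1.95-fold and 2.03-fold, Cd3e 3.82-fold and 4.30-fold, and Vegfa 2.56-fold and 2.95-fold. The mural list was split. Acta2, Tagln and Cnn1 were lower too with 5 or 6 genes, at 0.759, 0.571 and 0.584 times their level with 2 in EKP and 0.887, 0.795 and 0.594 times in RKP. Des, Mylk and Myh11 were at 1.20, 1.45 and 1.14 times in EKP and 1.17, 1.36 and 1.07 times in RKP. Rgs5 was 1.51-fold and 1.65-fold higher with 5 or 6 genes, and Higd1b stood at 0.933 (0.828 to 1.05) and 1.15 (0.979 to 1.35) times its level with 2. Cd36 was 1.69-fold and 2.93-fold higher. Members with 6 genes were also deeper, with a median of 195 counts in EKP and 185 in RKP against 153 and 147 with 2 genes, and the part of depth in the number of genes detected was not tested.

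**Figure D2:**
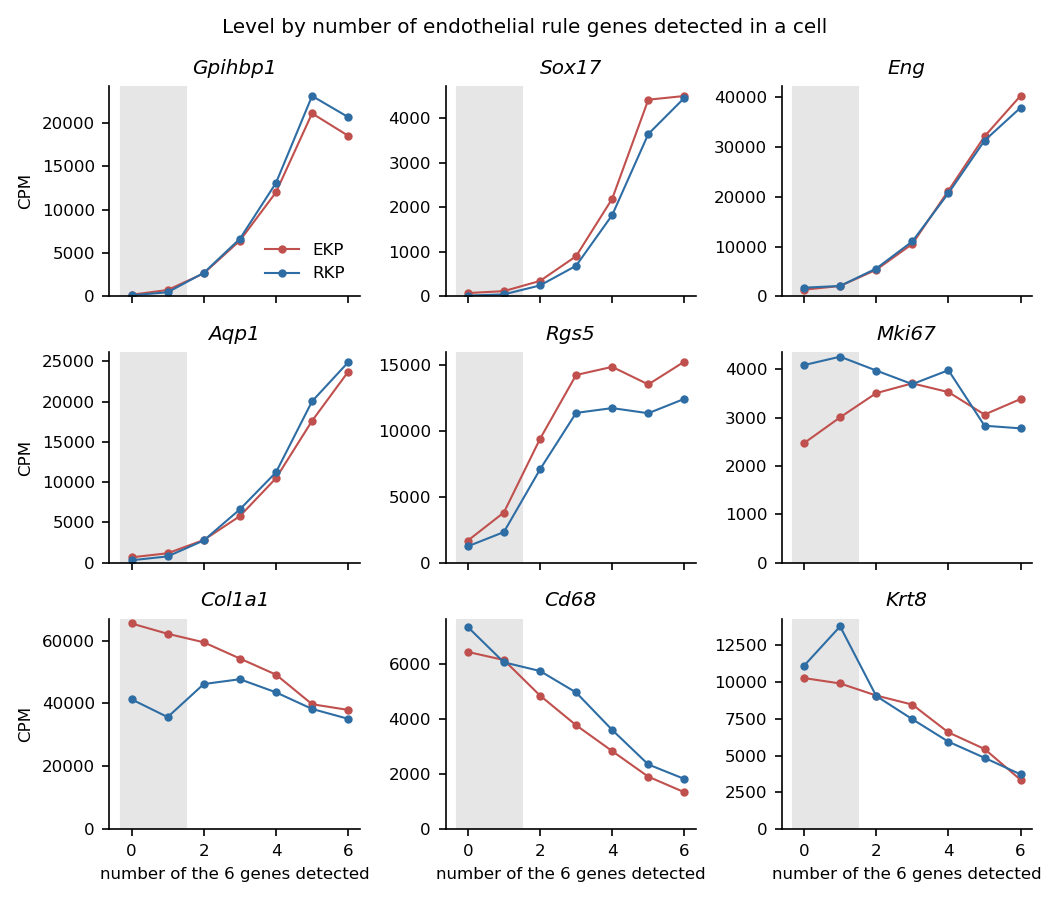
Level in CPM against the number of the 6 rule genes detected in a cell, EKP in red and RKP in blue; the grey band holds cells with 0 or 1 of them under the same limits, which are not members. Eng reaches 40356 and 37959.5 CPM at 6 genes, while Cd68 and Krt8 are lowest there in both sections.

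The cells kept out by Prox1 or Mmrn1 differed between the sections. In RKP, those 2005 cells held Lyve1, a lymphatic hyaluronan receptor, at 14031 CPM against 153 in the members, and Nts at 5363 against 749.6. Gpihbp1 was 3523 against 13236, Vwf 3677 against 12481 and Sox17 664 against 2118. Other endothelial genes were near or above the members there: Kdr stood at 13036 against 12592 CPM, Tie1 at 14988 against 13647, Plvap at 17054 against 17127 and Pecam1 at 12244 against 13591. The RKP cells kept out thus differed from members in some endothelial genes and not in all. In EKP, the 362 such cells held Lyve1 at 4246 CPM against 279, but Gpihbp1 at 16783 against 12439.9, Vwf at 15478 against 10482 and Sox17 at 3830.0 against 2529, all above the members. Calcrl and Angpt2 were higher in the cells kept out than in the members of both sections: Calcrl stood at 8377 and 12237 CPM and Angpt2 at 9281 and 7121. The cells kept out only by Epcam held Eng at 12978 CPM in EKP and 12455 in RKP, under the members' 21888 and 20698.

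Members were not alike among themselves. Genes found in the same cells were read among members with 4 or more rule genes besides the gene asked about, each thinned to 40 counts, as the share of cells with a second gene among those with the first over that among those without it. The 11 first genes asked about were chosen after their levels were seen, ratios are descriptions with exact intervals, and in cells of 40 counts a gene's absence may be chance. A first group of genes went with Cd36. Among 1309 EKP cells with Cd36 and 9924 without it, Cavin2 was found in 22.2% and 9.13%, a ratio of 2.43 (2.12 to 2.77), and in RKP in 12.8% and 5.56%, 2.30 (1.86 to 2.82). Cav1 was found 1.70 and 1.51 times as often, Mgll 1.93 and 1.63, Ly6c1 1.88 and 1.48, Cyp4b1, a fatty acid oxidising enzyme, 5.37 and 2.30, and Chga 5.93 and 3.23. Aqp7 was in 3.36% of EKP cells with Cd36 and 0.131% of those without, and in 0.984% and 0.0367% in RKP. Fatty acid uptake, glycerol passage and monoacylglycerol cleavage are the known tasks of Cd36, Aqp7 and Mgll. Ptn was rarer with Cd36, at 0.411 and 0.407 times, as were Vegfa at 0.437 and 0.339 and Krt8 at 0.369 and 0.580.

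A second group went with Vwf. Cells with Vwf held Angpt2 in 29.3% against 18.9% of those without it in EKP, a ratio of 1.55 (1.42 to 1.69), and in 21.4% against 14.2% in RKP, 1.51 (1.35 to 1.69). Hey1 was 1.56 and 1.46 times as frequent with Vwf, Aqp1 1.43 and 1.46, and Nts 1.91 and 1.56. Cd36 was less frequent with Vwf, at 0.541 (0.474 to 0.616) and 0.749 (0.648 to 0.864) times, and so was Chga at 0.346 and 0.528. Angpt2 in turn went with Sox17, at 1.67 and 1.39 times, Gpihbp1 at 1.38 and 1.31 and Prss23 at 1.45 and 1.52, and was found with less Cavin2, at 0.676 and 0.594, and less Ly6c1, at 0.632 and 0.607. Angpt2 with Cd36 differed between the sections, at 0.668 (0.577 to 0.769) in EKP and 1.01 (0.858 to 1.19) in RKP. Cells with Hey1 held Nts 2.13 and 3.11 times and Rbp7 2.92 and 4.53 times as often as cells without it.

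Cells with Mki67, a protein of cycling nuclei, formed another set. They held Top2a in 30.6% against 7.60% in EKP and 27.6% against 7.58% in RKP, 4.02 and 3.64 times as often. Vwf was 0.642 (0.569 to 0.722) and 0.686 (0.606 to 0.773) times as frequent in them, Gpihbp1 0.694 and 0.633, Angpt2 0.620 and 0.658 and Hey1 0.696 and 0.769, while Cavin2 was 1.34 and 1.56 times as frequent. Cells with Rgs5 were also rich in the mural genes Higd1b, at 3.72 and 4.33 times, Des at 2.83 and 2.83 and Mylk at 2.11 and 2.00, and in Gm13889 at 2.47 and 3.74 and Hey2 at 3.85 and 3.45. Within the members, these 2 genes therefore tracked the mural transcripts.

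**Figure D3:**
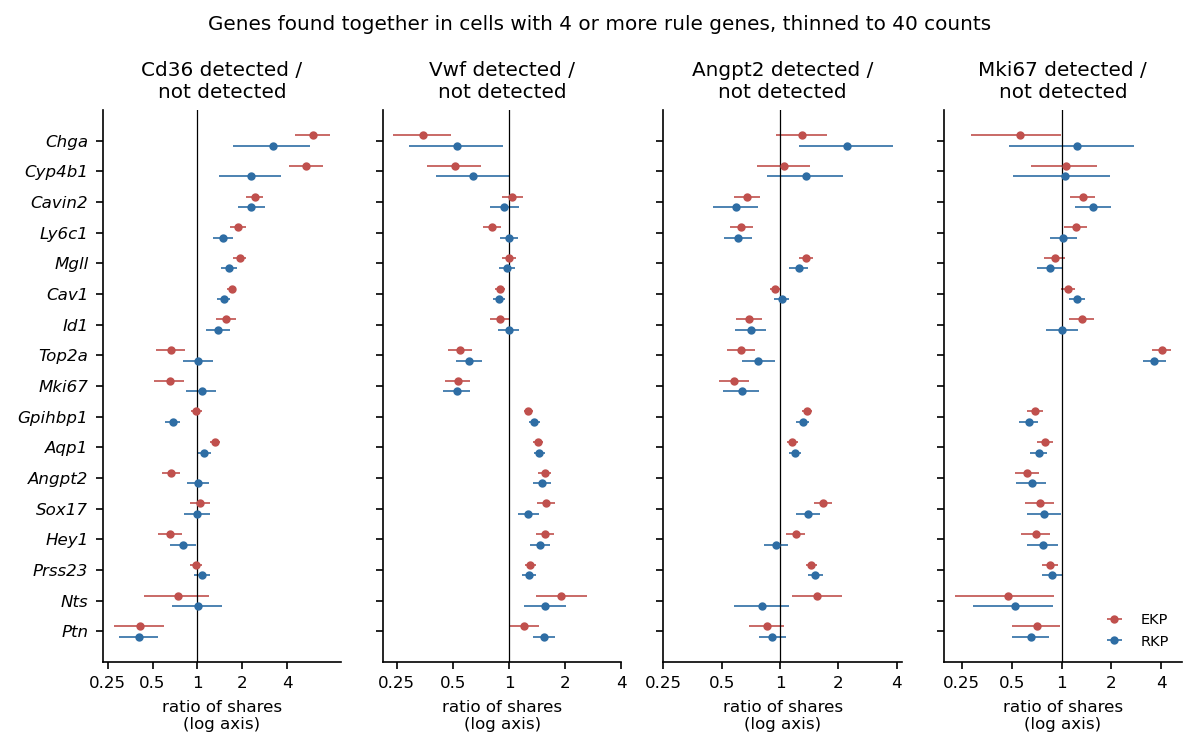
Ratio of the share of members with each listed gene among cells with and without Cd36, Vwf, Angpt2 or Mki67, on a log axis with 95% intervals, EKP in red and RKP in blue. Cavin2 lies at 2.43 and 2.30 beside Cd36, and Angpt2 at 1.55 and 1.51 beside Vwf.

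At 40 counts per cell, 17.5% (17 to 18.1) of EKP members and 13.8% (13.3 to 14.4) of RKP members held Angpt2, against 0.788% and 0.501% of the Epcam- and Krt8-rich cells, whose median depth was 273 and 259 counts. Hey1 was in 10.2% (9.81 to 10.7) and 11.1% (10.6 to 11.6) of members. Mki67 was in 9.39% (8.98 to 9.82) and 9.72% (9.26 to 10.2), and Top2a in 9.85% (9.43 to 10.3) and 9.78% (9.32 to 10.3). Mki67 in the Epcam- and Krt8-rich cells was 8.37% and 10.4%, so that Mki67 was about as frequent in them as in members. Unthinned, the shares of members were 39.3% and 31.4% for Angpt2 and 24.8% and 25.4% for Mki67. The intervals are over cells of 1 section each and do not compare the tumours. Over the 10 parts, Angpt2 spanned 3095 to 7889.8 CPM in EKP and 2993 to 6127 in RKP, which overlap.

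Between the sections, members made up 11.6% (11.4 to 11.7) of EKP and 6.69% (6.59 to 6.80) of RKP cells with 40 or more counts, a ratio of 1.73 (1.69 to 1.77). Of all barcodes they were 7.18% and 6.15%, a ratio of 1.17, since EKP held more barcodes under 40 counts. Without the limit on Prox1 and Mmrn1 the ratio was 1.56. Within each section the share varied widely over 10 successive parts of the file, whose place in the tissue the labels do not give: from 5.17% to 20.8% with a median of 11.5% in EKP, and from 4.50% to 9.64% with a median of 6.42% in RKP. Parts 1, 2 and 10 of EKP lay within the range of RKP, and the others above it. Parts are not replicates, and they show how far pieces of 1 section can differ.

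The genes that split the members also split the parts. Part 2 of EKP had the lowest Cd36 and Cav1, at 359 and 6659 CPM, and the highest Vwf and Gpihbp1, at 15665 and 19617. The same held for part 2 of RKP, with 259 and 4105 against 18213 and 24762, and part 7 of RKP came next in all 4 genes, with Cd36 at 1029 and Vwf at 17326. These parts had few members, 684, 1199 and 1047. The highest Cd36 was 7279.9 CPM in part 3 of EKP and 4537 in part 4 of RKP, where Aqp7 was highest too, at 384 and 182.

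**Figure D4:**
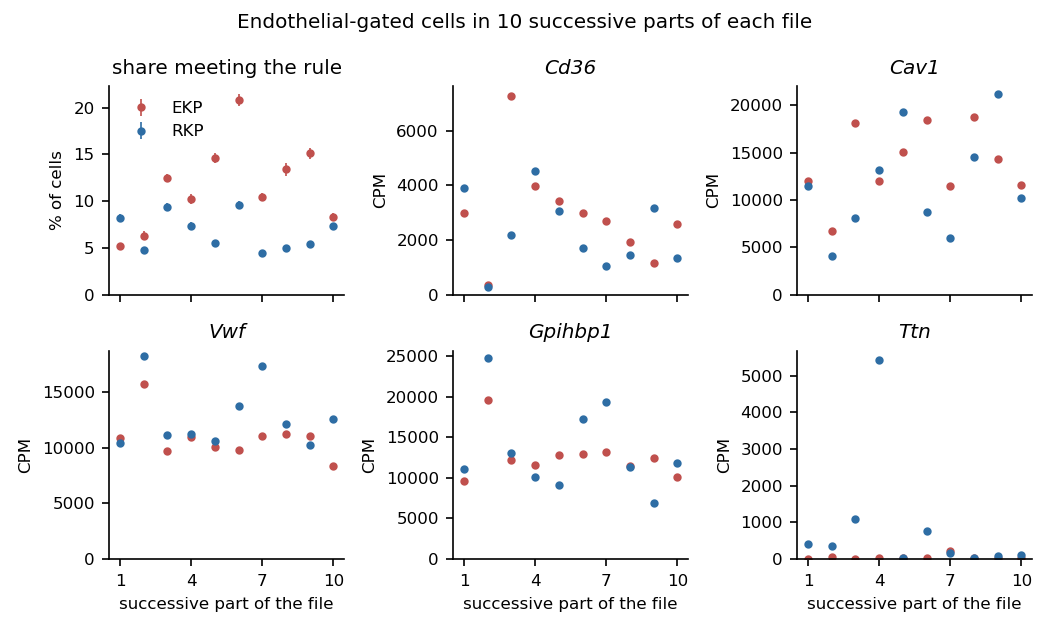
Share of cells meeting the rule, with 95% intervals, and levels in CPM of 5 genes in members, in each of 10 successive parts of the files, EKP in red and RKP in blue. Part 2 of both files is lowest for Cd36 and highest for Vwf and Gpihbp1, and part 4 of RKP holds Ttn at 5412 CPM.

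Several endothelial genes were close between members of the sections, while others were lower in RKP. The rule asks for its own genes in members of both sections. The ratios of those genes therefore describe the cells chosen and do not test closeness. The ratio of RKP to EKP was 0.987 for Pecam1, 0.997 for Kdr, 0.942 for Tie1, 0.929 for Plvap, 1.19 for Vwf and 0.732 for Clec14a. Outside the rule it was 0.946 for Eng, 1.01 for Calcrl, 1.06 for Gpihbp1, 1.06 for Aqp1, 1.11 for Hey1 and 0.837 for Sox17. Lower in RKP, short of 2-fold, were Angpt2 at 0.751, Cav1 at 0.771, Cavin2 at 0.566, Cd36 at 0.712, Ctla2a at 0.726 and Prss23 at 0.674. Of 7 capillary genes, 2 were at least 2-fold lower in RKP members, Aqp7 and Timp4, as 14.7% of all measured genes were. Timp4 stood at 26.5 CPM in EKP members and 10.1 in RKP members, on 87 and 26 counts. In EKP it was lower in members than in other cells, so it did not meet the level limit below. Prss23 was 1 of 3 genes, with Dcpp2 and Mfap5, whose parts were all higher in EKP among the 162 genes that met the level limit below (1.85%), beside 4 of all 462 measured genes (0.866%) in each direction: its 10 parts spanned 8503 to 10568 CPM in EKP and 5569.6 to 7216 in RKP, with no overlap. Nts was 1.66 times and AU021092 1.42 times as high in RKP.

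Because transcripts of neighbours can be assigned to members, a 2-fold difference was counted only for genes no lower in members than in all other cells of the section with the higher level. Of 162 genes that met this limit, 5 (3.09%) were higher in EKP. Lrp2, the endocytic receptor megalin, measured 286 CPM in members of EKP and 47.8 of RKP, 5.98-fold (4.95 to 7.28). Aqp7 stood at 95.5 and 25.2, 3.78-fold (2.89 to 5.02), Dcpp2, a salivary-type secreted protein, at 109 and 31.1, 3.51-fold, Chga at 507 and 154, 3.29-fold (2.95 to 3.68), and Ecrg4 at 1086 and 442, 2.46-fold. Part 3 of EKP carried much of the Aqp7: without it the log2 ratio of RKP to EKP went to -0.96, under 2-fold. Chga in parts ran from 66.8 to 1168 CPM in EKP and from 15.3 to 268 in RKP, which overlap. Among members with 5 or 6 rule genes, Chga was 3.42-fold, Aqp7 6.17-fold, Lrp2 6.50-fold and Dcpp2 3.69-fold higher in EKP, while Ecrg4 was 1.84-fold higher, under the 2-fold mark. Lrp2, Ecrg4 and Dcpp2 were 4.15-, 2.5- and 2.24-fold lower in EKP members with 5 or 6 rule genes than in those with 2, whereas Chga and Aqp7 were 1.62- and 2.63-fold higher. In EKP cells with exactly 1 rule gene under the same limits, Lrp2, Ecrg4 and Dcpp2 stood at 493, 1607 and 150 CPM, above the members. Chga and Aqp7 stood at 130 and 33.0 CPM there, below the members. The level limit takes all other cells together, so a gene can meet it and still be higher in such cells.

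In RKP members 21 of the 162 genes (13%) were at least 2-fold higher. The muscle list held 1 measured gene, Pvalb, and the other genes known from muscle named here were grouped after their values were seen. Pvalb, the calcium buffer of fast fibres, stood at 226 CPM in RKP and 5.47 in EKP members, 41.4-fold (25.9 to 70.3), and Ttn, the spring of the sarcomere, at 966 and 55.3, 17.5-fold (15.0 to 20.4). The EKP level of Pvalb rests on 18 counts, near the 13 of the highest negative control probe in the same cells. Pgam2, Trdn, Actn3, Myf6 and Myoz2 were 16.3-, 12.6-, 10.1-, 5.11- and 4.60-fold higher, and Cox8b at least 5.60-fold. Over the 10 parts of RKP, Ttn ran from 26.5 CPM in part 5 to 5412 in part 4, with 1083 in part 3 next. Without part 4 the log2 ratios of RKP to EKP were 3.16 for Pvalb, 2.89 for Ttn, 2.04 for Pgam2, 2.22 for Trdn, 0.81 for Myf6 and 0.14 for Cox8b. The other cells of RKP held Ttn at 379 CPM. RKP cells kept out only by Prox1 or Mmrn1 held Ttn at 1285 CPM and Pvalb at 450, above the members. Pgam2 and Myf6 were lower in them, at 82.2 and 42.7 CPM against 114 and 63.7 in RKP members. The Higd1b-gated cells of RKP held Ttn at 928 CPM, on 29 counts. The part of muscle transcripts assigned from neighbouring cells was not tested.

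The T cell list had 4 measured genes, and 3 passed the 2-fold mark towards RKP, as 9.96% of all measured genes did. Ctla4, Cd3e and Cd3d stood at 477, 513 and 247 CPM there and 113, 199 and 95.8 in EKP, while Cd8a, the exception, was 1.33-fold higher, at 192 and 144 CPM. The checkpoint receptor Pdcd1, outside the list, was 2.81-fold higher. The levels of Ctla4, Cd3e and Cd3d were near those of the other cells of RKP, 404, 455 and 222 CPM, and were lower in members with more rule genes, Cd3e going from 843 CPM with 2 to 135 with 6. Ptn, the growth factor pleiotrophin, stood at 4330.5 CPM in RKP and 1307 in EKP members, 3.31-fold (3.20 to 3.43), and at 4367 and 1698 among those with 5 or 6 rule genes, 2.57-fold. In cells with exactly 1 rule gene under the same limits Ptn was 8522 CPM in RKP, above the members. Coch, an extracellular matrix protein, was 8.72-fold higher in RKP and lay mostly in parts 8 and 9, at 417 and 684 CPM. Ldhb, a lactate dehydrogenase subunit at 982 against 419 CPM, was the only gene of the 162 (0.617%) whose 10 parts were all higher in RKP than in EKP.

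**Figure D5:**
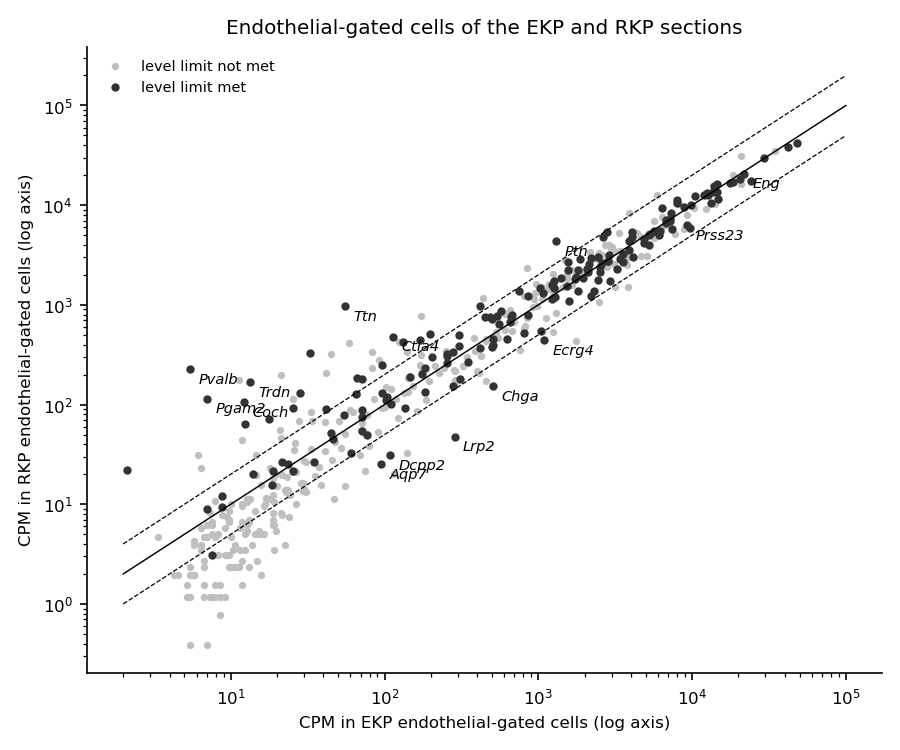
Level of each measured gene in EKP against RKP members, in CPM on log axes; dark points met the level limit, grey points did not, the solid line marks equal levels and dashed lines 2-fold. Pvalb lies farthest above the lines, at 5.47 and 226 CPM, and Lrp2 below them, at 286 and 47.8.

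Without the level limit, 46 of 462 genes (9.96%) were higher in RKP members and 68 (14.7%) in EKP members, so the limit decides the balance between the directions. The 757 and 750 members free of other lists gave a log2 ratio of 0.61 for Ttn, and -1.13 for Myf6, against the direction in all members.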

How the data were processed

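Xenium In Situ gave, per the file headers, deposited matrices of whole-number counts of decoded transcripts per gene and segmented cell for 1 EKP and 1 RKP section; no software version is named there. The submitters' processing notes name Seurat 4.4.0 without a role. The authors' deposited counts were used as they stand, with 20 negative control probes kept out of the totals. Counts were summed over cells, scaled to the gene total and compared as ratios with exact conditional binomial 95% intervals; shares have Clopper-Pearson intervals. These cover counting error only. A gene was kept above the highest negative control probe and above 3 counts, and marked at 2-fold, which is a rule of size. Shares across depths used cells thinned to 40 counts. Doublets were not called. The result of 1 marker list is not reported here. The members and lists were chosen with earlier results of these data known. Named were the rule's genes, the 20 leading genes, the 10 most different each way between sections and members of the lists; Prss23, Mfap5, Ldhb, Ptn, Pdcd1, Cyp4b1 and the genes found together were added after their values were seen. Alternatives changed depth, rule, scaling and filters; those with 5 or more rule genes or a left-out part of a file were added after seeing the data. The ratio was tested on simulated counts. Python 3.11.15, NumPy 2.4.6, SciPy 1.17.1, pandas 2.3.3 and matplotlib 3.10.9 were used.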

Additional observations from a re-analysis of the deposited data

Results flagged for a closer look

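Pgam2 and Trdn, genes of the muscle fibre, were below the other cells in EKP members and above them in RKP members. The log2 ratio of members over other cells was -1.02 in EKP and 1.26 in RKP for Pgam2, and -1.01 and 1.39 for Trdn. With 1 section of each tumour the difference between the sections was not tested.

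Barcodes with under 40 gene counts entered no comparison, and 543 of them in EKP and 346 in RKP met the gene conditions of the rule.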

How the results depend on the processing

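The EKP over RKP ratio of member shares, 1.73, kept its direction throughout: it was 1.55 and 1.84 with 20 and 80 counts as the minimum, 1.78 with 3 or more rule genes, 1.96 with Epcam at 0, 1.67 without an Epcam limit, 1.56 without a limit on Prox1 and Mmrn1 and 1.17 over all barcodes. Of genes 2-fold apart between sections, 17 were higher in EKP with 80 counts, 13 in RKP without an Epcam limit, 12 in RKP and 3 in EKP with thinning before the gate, 46 and 68 without the level limit, 13 and 8 with 5 or more rule genes, and 8, 8, 9 and 9 in EKP without parts 4, 5, 6 and 9 of the EKP file. Without members that carried 2 or more genes of another list, 171, 128 and 96 genes were higher in members of EKP, RKP and both, and 46 in EKP against RKP members. In that setting Higd1b went to -0.56 in EKP and -0.15 in RKP and Rgs5 to 0.27 and 0.33 (log2, members over other cells), and Myf6 to -1.13, Ttn to 0.61 and Dcpp2 to -0.54 (log2, RKP over EKP). Ecrg4 was -0.88 with 5 or more rule genes, Aqp7 -0.96 without part 3 of EKP, and Cox8b 0.14 and Myf6 0.81 without part 4 of RKP. Unthinned shares in EKP and RKP were 39.3% and 31.4% for Angpt2, 28.4% and 29.6% for Hey1, 24.8% and 25.4% for Mki67 and 26.3% and 24.8% for Top2a; with 3 or more rule genes Angpt2 was 20.8% and 16.4% and Hey1 12.5% and 13%. Removing cells or changing depth accounts for part of these shifts by construction, and otherwise the cause was not tested. The remaining 102 values of shares and counts stayed near the main value, within its interval for shares and within a set ratio of it for counts. The remaining 1069 values of single genes kept their direction and their side of the 2-fold mark. No paired analysis was possible because each group has 1 section. One section of each tumour, no positions and no replicate limit what the ratios can show.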
